A study of Mus musculus with 1 sample.

Results

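The cells described here are mouse bone marrow progenitors with high myeloperoxidase (Mpo) and low neutrophil elastase (Elane) RNA. They were chosen per cell from the count table of the single library. A member had at least 500 detected genes and at most 20% mitochondrial counts. Per 10000 of its counts it had at least 20 of Mpo, under 50 of Elane and under 10 of Fcnb, and it had fewer than 2 counts of Klf4. Of 10528 cells with a single hashtag, 709 cells (6.73%) met the rule.

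The library pooled sorted bone marrow cells of 1 naïve mouse and 1 LPS-injected mouse, where LPS is lipopolysaccharide, a bacterial cell wall product that triggers inflammation. The design text names cKit+Lin- progenitors and GMP-MoPs of both mice and cMoPs of the naïve mouse, where cKit is the stem cell factor receptor and Lin- means free of mature lineage markers. Hashtags A961 to A965, DNA barcodes bound to PE-streptavidin, marked the origin of each cell, and 15000 cells each were loaded for A963 and A965 against 100 cells each for A961, A962 and A964. The labels do not tie a hashtag to a mouse or a sort gate, so groups are called by hashtag. Strain, age, and LPS dose and time are not given in the sources used here.

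Each hashtag was 1 sample, so no difference between hashtags has a replicate check and no p-value is given. All intervals are 95% intervals of counting error only. Levels are given as CPM, the counts of a gene summed over the cells of a group and scaled to a common total. In members, the X-inactivation RNA Xist stood at 789 CPM in A963 and 13.6 CPM in A965, and the Y-linked Ddx3y at 0.198 and 30.9 CPM. The members' median total also differed, with 28657.5 counts in A963 and 43385 counts in A965. Sex, depth, mouse and treatment therefore cannot be told apart in any difference between A963 and A965. No barcode number was shared by more than 1 cell of the table.

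Granulocyte and monocyte progenitors make Mpo and the serine proteases elastase, proteinase 3 and cathepsin G before any other granule protein, and store them in azurophil granules. In the mouse, Irf8 drives the monocyte and dendritic cell fate from these progenitors, Cebpe and Gfi1 the neutrophil fate, and Gata2 with Cebpa the basophil and eosinophil fates. Cd34 is a surface marker of the earlier stages.

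Members made up 7.21% of A963 cells (340 of 4716, interval 6.49 to 7.99) and 6.43% of A965 cells (358 of 5567, interval 5.80 to 7.11). The ratio of the shares was 0.892 with an interval of 0.773 to 1.03, which includes equal shares. A962 held 8 members among 104 cells and A961 held 3 among 68. The 104 kept cells of A962 exceeded the 100 loaded, and the reason was not tested, so values of A962 are given with that limit. A964 held 0 of 73 cells, which allows a share of up to 4.11% when 0 is read as at most 3 counts, or 4.93% by the exact binomial limit. How cells were sorted under each hashtag can set these shares.

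The values that chose the cells are given as a description. Mpo had a median of 40.9 per 10000 in members, with a lowest value of 20.1 and a highest of 150.5, and Elane had a median of 15.3 with a range from 0 to just under 50. Globin-high cells, meaning cells with at least 200 alpha and beta globin counts per 10000 and no part of the members, had medians of 0.211 for Mpo and 0.244 for Elane. Near the Mpo threshold, 36 members lay at 20 to 22 and 47 cells that met every other condition at 18 to 20. Near the Elane threshold, 33 members lay at 45 to 50 and 29 other cells at 50 to 55. One count of Klf4 was present in 95 members, and 61 cells were kept out by exactly 2 counts. The Klf4 condition uses raw counts while the other gene conditions are per 10000, so it depends on the depth of a cell. Depth differed between A963 and A965, and shares after thinning are given in the closing section. These thresholds cut through continuous distributions, as the plot of Mpo against Elane shows.

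**Figure D1:**
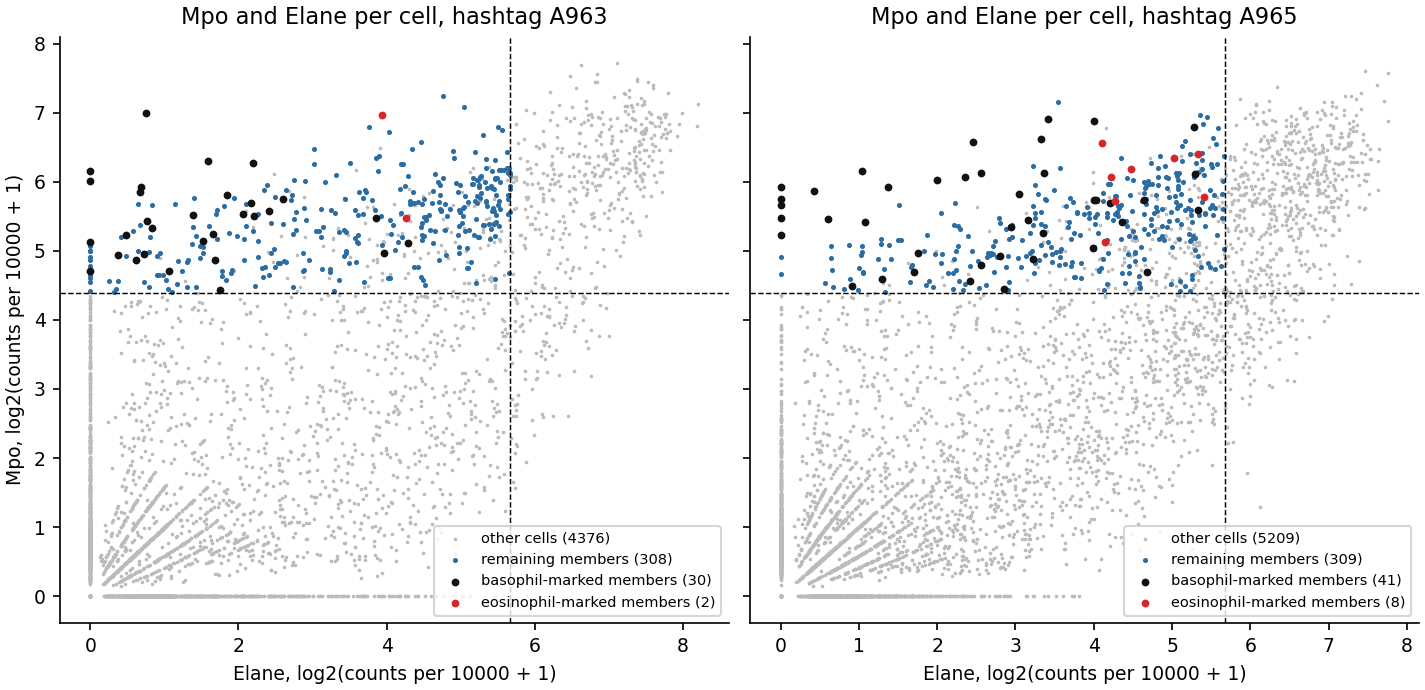
Mpo against Elane in each cell of A963 (left) and A965 (right), both axes as log2 of counts per 10000 plus 1, with dashed lines at the rule's thresholds of 20 and 50. Remaining members (308 and 309 cells) run up to the Elane line without a gap, and basophil-marked members (30 and 41 cells, black) and eosinophil-marked members (2 and 8 cells, red) lie among them in Mpo.

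The 5 marker genes given for these cells were at least 2-fold higher in members than in all other cells in both hashtags. Over all 25661 genes, 0.191% reached 2-fold higher and 0.701% 2-fold lower in both hashtags, or 0.616% and 2.26% of the 7954 genes with at least 10 CPM, with 10 CPM added to each level before the ratio, as in every count below. Because the cells were selected on Mpo and Elane, these values describe the members and test nothing. Cd34 had 229 CPM in A963 members against 51.4 CPM in other cells, and 145 against 37.9 CPM in A965. Ctsg, which encodes cathepsin G, had 2039 against 713 CPM in A963 and 2549 against 1082 CPM in A965. Calr, an endoplasmic reticulum chaperone of glycoproteins such as Mpo, had 1011 against 346 CPM and 1365 against 469 CPM. Srm, the polyamine enzyme spermidine synthase, had 186 against 79.5 CPM and 191 against 49.9 CPM. The 4 markers that the rule did not use were thus higher in members, and Mpo was high by the rule.

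Other genes stood with the markers in this comparison with all other cells. Cebpa, a transcription factor needed to form granulocyte and monocyte progenitors, had 108 CPM in A963 members against 36.7 CPM in other cells, and 104 against 35.7 CPM in A965. Phgdh, which opens serine synthesis, was 2.80-fold higher in A963 members and 2.96-fold higher in A965 members. Pdia4 and Pdia6, protein disulfide isomerases, were 2.49-fold and 2.19-fold higher in A963 and 2.31-fold higher each in A965. Of the 17 ER chaperone genes listed, 3 reached 2-fold higher and 0 lower, and of 19 ribosome biogenesis genes only Srm did, with list medians of 0.65 and 0.66 on the log2 scale.

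Genes of later neutrophil stages were low. Of 15 later neutrophil granule genes, 13 were at least 2-fold lower in members than in other cells in both hashtags, with a list median of -3.56 on the log2 scale. Fcnb, one of the 13, is a rule gene. Camp, the cathelicidin of specific granules, had 866 CPM in A963 members and 742 CPM in A965 members, against 818 and 1732 CPM in globin-high cells. The summed Camp level in members was thus slightly above that of globin-high cells in A963 and below it in A965. In A965, 5 of 59 globin-high cells held 200 or more thinned counts of the list, and the sum includes them. Thinned to 8800 counts per cell, Camp had a median of 2 counts in members of both hashtags, against 2 and 3 in globin-high cells. Camp in most members is therefore read as background. After thinning every cell to 8800 counts, 24 members (3.39%, interval 2.18 to 4.99) held 200 or more counts of the list, and 7 of those 24 were called doublets by Scrublet. Among cells that met every condition except low Elane, 25.3% did so.

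The surface and cycle genes were compared with globin-high cells at the same thinned depth of 8800 counts. Cd34 was detected in 71.2% of A963 members and 56.1% of A965 members, against 1.83% and 6.78% of globin-high cells. Before thinning the members' shares were 86.2% and 83.5%. Kit, the gene of the sorted receptor cKit, was detected in 25.3% and 17.0% of members against 1.22% and 3.39% of globin-high cells. Both genes were thus above the background share, although Kit counts were few per cell. Mki67, a proliferation marker, was detected in 53.8% and 52.0% of members and in 89.0% and 89.8% of globin-high cells.

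The promoters below are shown because the report turns on these genes: Mpo and Elane defined the cells, and Prss34 and Epx mark the subsets described next. Each runs from 250 bases before to 50 bases after the RefSeq start of the gene in build GRCm38.p6. Capitals mark matches to 3 motifs searched on both strands, with no overlap between matches: GAGGAA (the core bound by PU.1 and related ETS factors), TTNNGNAA (bound by C/EBP factors) and AGATAA (bound by GATA factors). Mpo lies at chr11:87793534-87793833 (plus strand), Elane at chr10:79886062-79886361 (plus strand), Prss34 at chr17:25298144-25298443 (plus strand) and Epx at chr11:87875487-87875786 (minus strand).
Mpo: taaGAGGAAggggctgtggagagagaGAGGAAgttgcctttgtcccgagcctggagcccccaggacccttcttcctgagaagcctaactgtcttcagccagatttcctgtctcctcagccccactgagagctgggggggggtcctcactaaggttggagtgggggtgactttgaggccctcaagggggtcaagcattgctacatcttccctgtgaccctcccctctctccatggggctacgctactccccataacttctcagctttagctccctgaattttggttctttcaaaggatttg
Elane: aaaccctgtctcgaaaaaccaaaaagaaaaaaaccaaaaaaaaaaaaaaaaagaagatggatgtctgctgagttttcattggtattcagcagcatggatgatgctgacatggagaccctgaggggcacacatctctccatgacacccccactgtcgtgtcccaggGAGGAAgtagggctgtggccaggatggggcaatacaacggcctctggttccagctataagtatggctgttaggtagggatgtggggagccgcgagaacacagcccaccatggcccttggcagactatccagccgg
Prss34: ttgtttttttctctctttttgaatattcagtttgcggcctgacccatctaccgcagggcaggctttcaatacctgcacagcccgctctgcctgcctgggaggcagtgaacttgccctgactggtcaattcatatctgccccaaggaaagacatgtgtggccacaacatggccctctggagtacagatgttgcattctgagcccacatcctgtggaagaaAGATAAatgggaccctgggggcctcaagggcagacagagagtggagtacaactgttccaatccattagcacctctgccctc
Epx: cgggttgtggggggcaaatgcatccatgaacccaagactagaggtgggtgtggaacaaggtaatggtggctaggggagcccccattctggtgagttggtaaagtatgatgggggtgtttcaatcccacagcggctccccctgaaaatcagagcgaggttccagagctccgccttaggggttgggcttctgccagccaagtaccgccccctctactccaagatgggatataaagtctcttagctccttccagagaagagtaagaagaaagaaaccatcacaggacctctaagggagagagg
The Mpo window held 2 GAGGAA matches and the Elane window 1, while the Prss34 window held 1 AGATAA match and the Epx window held none of the 3 motifs. Of 32851 promoters of the same length, 28.3% held GAGGAA, 40.7% TTNNGNAA and 11.2% AGATAA. A match describes the letters in the window only.

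Several of these genes sit close together in the GRCm38 annotation. Elane lies 3.073 kb from Prtn3 on chromosome 10, and Mpo lies 59.587 kb from Epx on chromosome 11. Mcpt8 lies 14.608 kb from Ctsg on chromosome 14, and Prg2 lies 4.583 kb from Prg3 on chromosome 2.

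Part of the members carried effector genes of basophils and eosinophils. A cell was called basophil-marked at 10 or more summed counts per 10000 of Prss34, Mcpt8, Cpa3 and Ms4a2, and eosinophil-marked at 10 or more of Prg2, Epx and Prg3, and the 9 cells over both limits were counted as eosinophil-marked only. These limits were set after the values were seen. There were 71 basophil-marked members, 30 in A963 (8.82%, interval 6.03 to 12.4) and 41 in A965 (11.5%, interval 8.35 to 15.2). There were 10 eosinophil-marked members, 2 in A963 (0.588%, interval 0.0713 to 2.11) and 8 in A965 (2.23%, interval 0.970 to 4.36). The other 628 are called remaining members. The intervals of A963 and A965 overlapped for both kinds of cell.

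Most marked cells stood well above the limits. The summed basophil genes had a median of 180 per 10000 in basophil-marked members, and the highest of 395 globin-high cells had 3.28. Between 5 and 10 per 10000 there were 12 members, and between 10 and 20 there were 11. The summed eosinophil genes ranged from 11.5 to 1719 per 10000 in marked members, with a highest value of 0.482 in globin-high cells. Scrublet called 0 of the 81 marked members doublets and 14 of the remaining members. Of all 136 cells over the basophil limit, 80 were members, and of all 14 cells over the eosinophil limit, 10 were members. At 100 per 10000 or more, members were 46 of 76 cells for the basophil genes and 8 of 8 for the eosinophil genes.

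**Figure D2:**
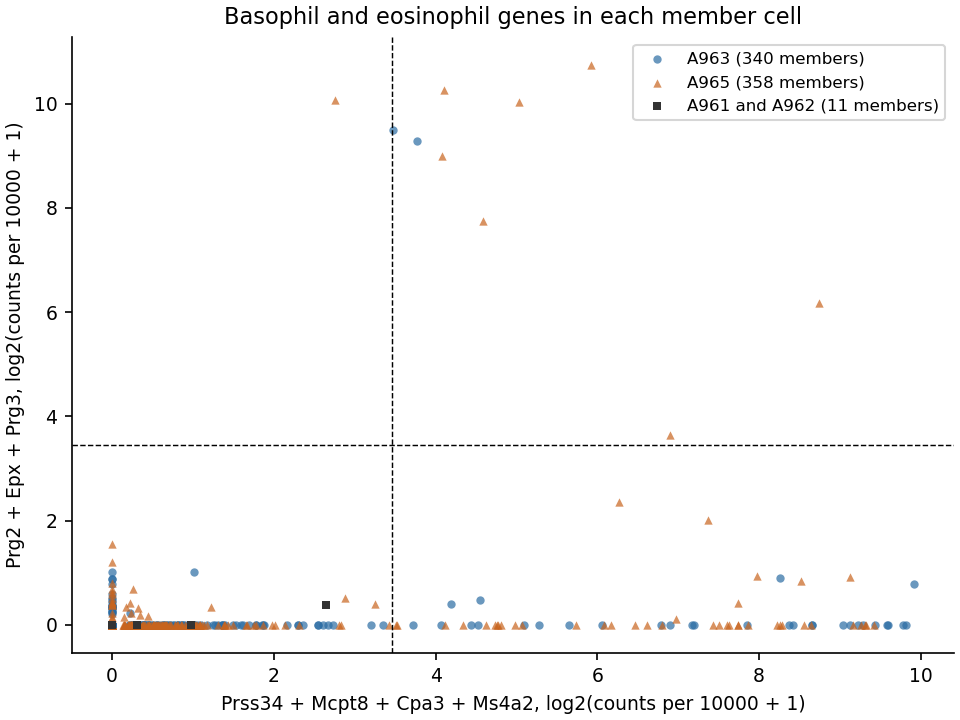
Summed basophil genes (x axis) against summed eosinophil genes (y axis) in each of the 709 members, as log2 of counts per 10000 plus 1, with dashed lines at the limit of 10. Most members lie near 0 on both axes, a band of cells extends right with the basophil genes, and 10 cells lie above the eosinophil limit, 9 of them also right of the basophil limit.

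Basophil-marked members had the protease genes that marked them, and further genes of basophils that did not. Of 25661 genes, 287 (1.12%) were at least 2-fold higher and 93 (0.362%) at least 2-fold lower than in remaining members in both hashtags, or 3.52% and 1.14% of the 8161 genes with at least 10 CPM. The genes used to mark the cells are a description: Prss34, a basophil serine protease, reached 16239.9 CPM in A963 and 8095 CPM in A965 against 2.62 and 2.00 CPM. Fcer1a and Ms4a2 encode the alpha and beta chains of the IgE receptor, and Fcer1a, which did not mark the cells, had 495 and 305 CPM against 0.105 and 0.200 CPM. Cyp11a1, a steroid synthesis enzyme, had 171 and 179 CPM against 0.941 and 0.666 CPM. Of 10 basophil and mast cell genes, 9 were at least 2-fold higher, 4 of them the marking genes.

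Transcription factors and receptors differed too. Gata2 had 382 CPM in A963 and 253 CPM in A965 against 6.49 and 6.06 CPM, a 58.8-fold (interval 44.0 to 79.7) and 41.7-fold (interval 32.9 to 53.4) higher level. Cebpa was 3.22-fold and 3.46-fold higher, at 314 and 304 CPM. Gata1, better known from erythroid cells, had 45.7 and 30.3 CPM against 1.26 and 0.533 CPM. Csf2rb, the beta chain shared by the IL-3, IL-5 and GM-CSF receptors, was 4.86-fold and 3.98-fold higher, and Il3ra, the IL-3 receptor alpha chain, 2.72-fold and 3.28-fold higher. Of 15 genes in the growth factor receptor list, 4 were at least 2-fold higher and 5 lower. The higher ones were Csf2rb, Csf2rb2, Il3ra and Fcgr3, of which Fcgr3 is an Fc receptor and not a growth factor receptor. The lower ones were Flt3, Csf1r, Csf3r, Il6ra and Il6st. The receptors for IL-3 were thus higher while those for the macrophage and granulocyte colony-stimulating factors and IL-6 were lower.

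Most listed monocyte genes were low in basophil-marked members. Of 14 listed, 8 were at least 2-fold lower and 0 higher, with a list median of -1.34 on the log2 scale against 0.00 for all genes with at least 10 CPM. Irf8 had 5.96 CPM in A963 and 46.2 CPM in A965 against 459.8 and 309.8 CPM in remaining members. Thinned to equal depth, Irf8 was detected in 10% and 12.2% of basophil-marked members, against 84.7% and 74.4% of remaining members and 7.01% and 13.6% of globin-high cells. The share in basophil-marked members lay near that of globin-high cells and is read as background. F13a1, the coagulation factor XIII subunit made by monocytes, had 0 counts in the 30 A963 cells and 32.8 CPM in A965. Ly6c2, an antigen of monocytes and their progenitors, had 167 and 397 CPM against 3092 and 2084 CPM, although its near-identical neighbour Ly6c1 may share its reads.

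The azurophil genes did not move as a group. Mpo, held over the same threshold in both groups by the rule, had 4555 and 5133 CPM in basophil-marked members against 4482 and 4344 CPM, and Ctsg 2456 and 3354 CPM against 2024 and 2478 CPM. Prtn3, proteinase 3, was 7.01-fold lower in A963 at 602 CPM and 2.41-fold lower in A965 at 2235 CPM. Srgn, the serglycin core on which granule proteases are stored, was 3.97-fold and 2.85-fold higher. The median depth of these cells was lower than that of remaining members, at 14399.5 against 29882.5 counts in A963 and 25290 against 46933 counts in A965. The part of depth in these values was not tested.

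The 10 eosinophil-marked members were summed over both hashtags, since A963 held 2. Prg2, the eosinophil major basic protein, had 69226 CPM, Epx, eosinophil peroxidase, 7586 CPM, and Prg3, a relative of Prg2, 5291 CPM. All 3 marked the cells. Per cell, Prg2 had 665 and 603 counts per 10000 in the A963 cells. In the A965 cells it had 1455, 1010, 926, 847, 420.4, 183, 49.5 and 3.63 per 10000. The lowest A965 cell passed only with Epx and Prg3 added, so Prg2 varied widely among the 10.

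Cebpe, a transcription factor of neutrophil and eosinophil formation, had 820.3 CPM and was detected in 9 of 10 cells, against 27.8 and 47.9 CPM in basophil-marked members of A963 and A965. Il5ra, the IL-5 receptor chain of eosinophils, had 42.8 CPM and was detected in 70% of the cells. Basophil genes were detected too, with Cpa3 and Mcpt8 in 10 of 10 cells and Prss34 in 5, but unevenly. In the cell with 49.5 of Prg2 the basophil genes summed to 426 per 10000 and Cebpe had 0 counts, and in the cell with 3.63 of Prg2 they summed to 119. In the other 8 cells they summed to 5.75 to 59.7. Irf8 had 2 counts, and Ly86 and F13a1 1 count each, over all 10 cells. Over all genes, 760 (2.96%) were at least 2-fold higher and 714 (2.78%) at least 2-fold lower than in remaining members, or 8.57% and 8.05% of the 8872 genes with at least 10 CPM. In this comparison of few cells 10 of 14 monocyte genes were lower.

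**Figure D3:**
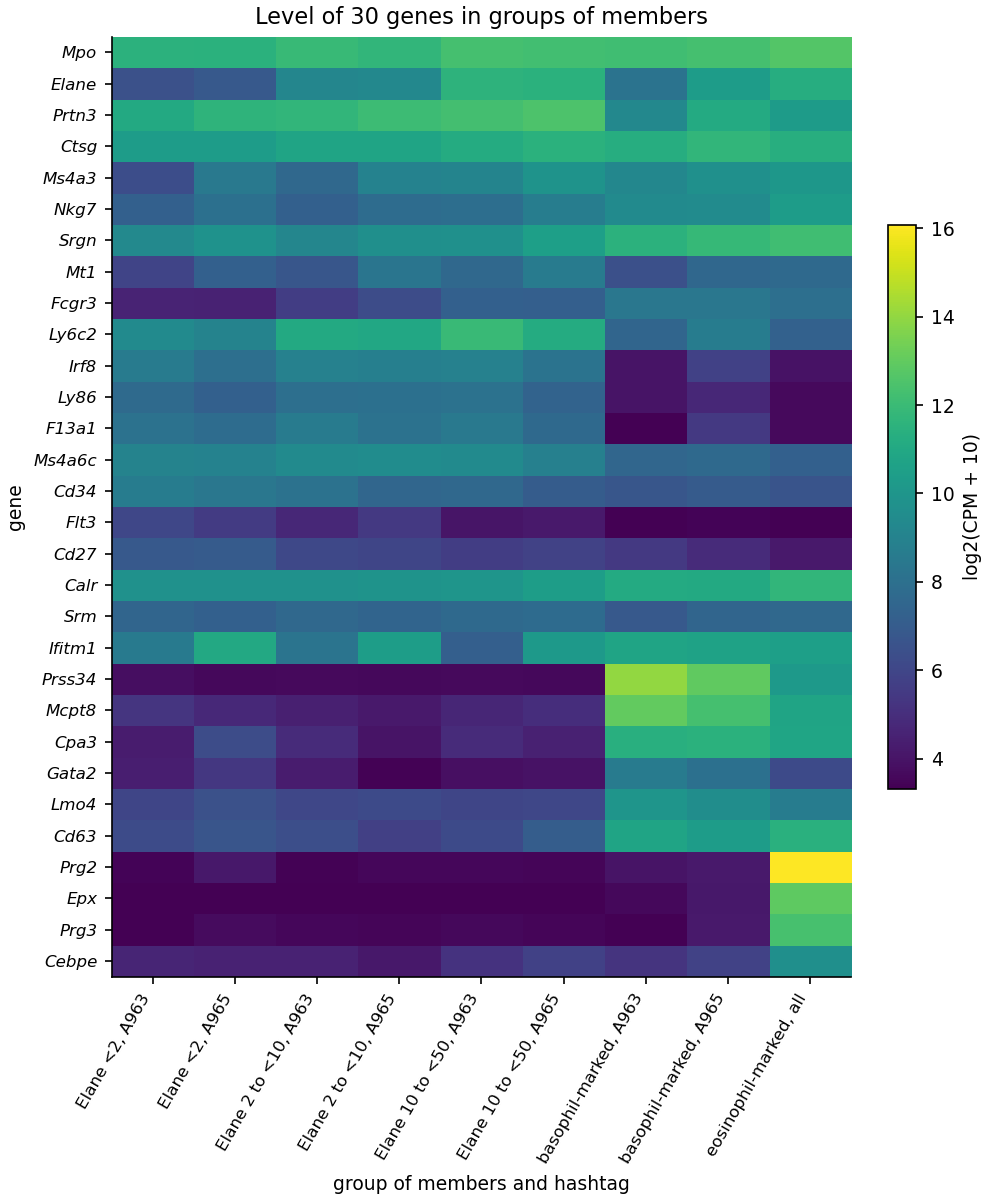
Level of 30 genes, as log2 of CPM plus 10, in remaining members by band of Elane, in basophil-marked members (each for A963 and A965) and in the 10 eosinophil-marked members together. Mpo is bright in every column, Irf8, Ly86 and F13a1 are dark in the basophil- and eosinophil-marked columns, and Prss34, Mcpt8 and Gata2 are bright in the basophil-marked columns.

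Among the 628 remaining members, Elane varied from 0 to its threshold, and the cells were split into bands of under 2, 2 to under 10 and 10 to under 50 per 10000. The bands held 50, 77 and 181 cells of A963 and 27, 76 and 206 cells of A965. Elane is a rule gene, so the bands order the cells and are not a finding, and they were chosen with earlier values known. Between the top and bottom bands, 46 genes (0.179%) were at least 2-fold higher and 24 (0.0935%) at least 2-fold lower in both hashtags, or 0.591% and 0.308% of the 7780 genes with at least 10 CPM. With all members the counts were 41 (0.16%) and 57 (0.222%). Median depth also went up with the band, from 23957.5 to 31838 counts in A963 and from 36143 to 50013 counts in A965, and its part was not tested.

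Several genes of early progenitors were highest in the lowest Elane band. Cd34 had 399, 266 and 192 CPM from the bottom to the top band in A963, and 325, 177 and 123 CPM in A965. Flt3, the receptor of early multipotent and lymphoid-primed progenitors, had 56.0, 16.4 and 6.78 CPM in A963 and 35.9, 33.4 and 8.39 CPM in A965. Cd27, a costimulatory receptor of early progenitors, had 109.6, 57.1 and 40.3 CPM in A963 and 116, 52.7 and 46.4 CPM in A965. In each of these genes the bottom band was the highest and the top band the lowest in both hashtags. Adgrg1, an adhesion receptor of stem cells, was 4.22-fold lower in the top band of A963 and 5.15-fold lower in that of A965, and Angpt1, the Tie2 ligand, 6.48-fold and 7.67-fold lower. Of 16 stem and multipotent genes, 4 were at least 2-fold lower and 0 higher, with a list median of -0.59 on the log2 scale.

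Fcgr3, Ly6c2 and Ms4a3 went the other way. Fcgr3, the Fc receptor used with Cd34 to sort granulocyte and monocyte progenitors, had 14.4, 39.8 and 140.0 CPM in A963 and 12.96, 66.9 and 136 CPM in A965. The top band was 9.73-fold (interval 6.12 to 16.5) and 10.5-fold (interval 6.12 to 19.8) above the bottom band. Ly6c2 had 672, 2118 and 3957 CPM in A963 and 511, 1994 and 2256 CPM in A965. The Elane bands thus ordered the cells by the pair of genes, Cd34 and Fcgr3, in opposite directions. Ms4a3, a membrane protein of granulocyte and monocyte progenitors, had 69.6, 191 and 533 CPM in A963, but 353, 486 and 930.2 CPM in A965. Prtn3 had 2168, 3401 and 4954 CPM in A963 and 3103, 4213 and 5938 CPM in A965. Its rise from the bottom to the top band was smaller in fold than that of Ms4a3 in both hashtags. Gstm1, a glutathione transferase, was 4.72-fold and 5.55-fold higher in the top band. Of 12 azurophil genes, only Elane itself and Ms4a3 reached 2-fold in both hashtags.

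Irf8 did not follow Elane. It had 393, 471 and 469.6 CPM across the bands in A963 and 239, 438 and 279 CPM in A965. Across cells, the Spearman correlation of Irf8 with Elane was 0.0364 in A963 (308 cells) and -0.133 in A965 (309 cells). Irf8 went with monocyte genes instead, with a correlation of 0.530 and 0.497 with F13a1 and of 0.457 and 0.527 with Ms4a6c, a tetraspan gene of monocytes. Its correlation with Nkg7, a granule membrane gene, was -0.413 and -0.472. These correlations are descriptions over cells of 1 library thinned to 8800 counts, and the cells share library, depth and free RNA.

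**Figure D4:**
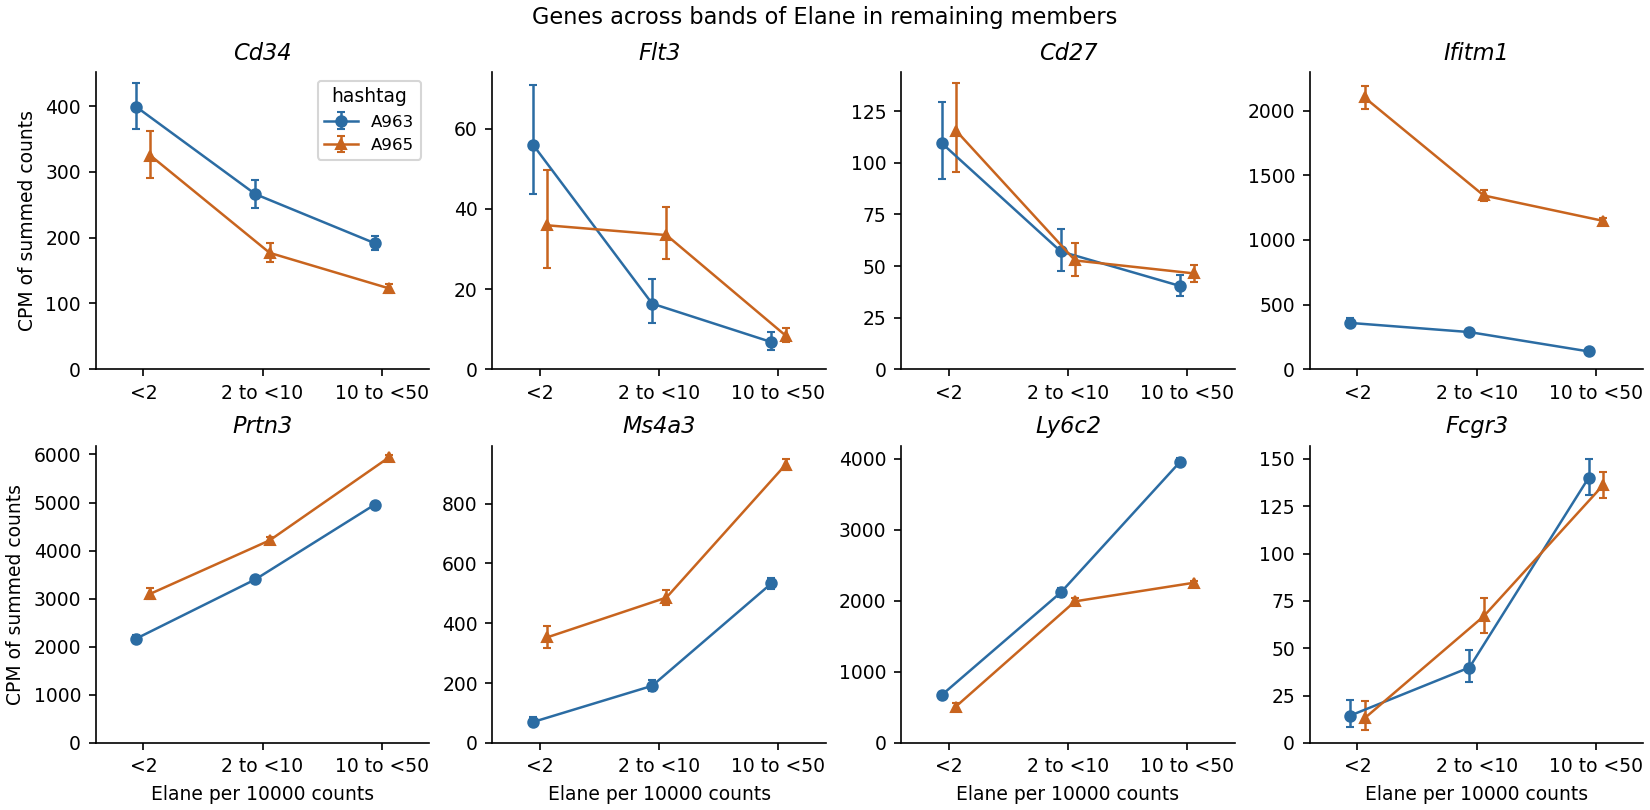
CPM of summed counts of 8 genes in remaining members by band of Elane per 10000 counts, for A963 (blue circles) and A965 (orange triangles), with bars for the 95% interval of counting error. Cd34, Flt3, Cd27 and Ifitm1 go down from the lowest to the highest band and Prtn3, Ms4a3, Ly6c2 and Fcgr3 go up, and Ifitm1 is higher in A965 than in A963 in every band.

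Members were next set beside cells that broke a single condition of the rule. The first comparison was with 553 cells with Elane of 50 or more, called Elane-high. Over all genes, 62 (0.242%) were at least 2-fold higher and 85 (0.331%) at least 2-fold lower in members in both hashtags, and 49 (0.191%) and 100 (0.39%) with remaining members alone. Of the 7833 genes with at least 10 CPM, 0.792% were higher and 1.09% lower in members. Of 14 monocyte genes, 6 were at least 2-fold higher in members and 0 lower, 8 did not pass, and the list median was 0.89 on the log2 scale. Irf8 had 435 CPM in A963 members against 157 CPM in Elane-high cells, and 285 against 91.5 CPM in A965. Ly86, a partner of the Toll-like receptor relative Cd180, was 3.40-fold and 3.90-fold higher, and Ccr2, the chemokine receptor for monocyte exit from marrow, 2.81-fold and 4.16-fold higher. Csf1r, the macrophage colony-stimulating factor receptor, was 2.73-fold and 3.05-fold higher. Summed per cell the list gave the opposite order. After thinning its median was 31 counts in A963 members and 19 in A965 members, against 46 and 35 in Elane-high cells. Ly6c2, a member of the list, had 2935 and 1923 CPM against 4871 and 3924 CPM.

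Cd34 was 3.28-fold (interval 2.99 to 3.60) higher in A963 members than in Elane-high cells and 9.14-fold (interval 8.01 to 10.5) higher in A965. Cebpe and Gfi1, regulators of neutrophil formation, were lower. Cebpe had 25.8 CPM in A963 members against 167 CPM, and 52.1 against 248 CPM in A965. Gfi1, a repressor, was 4.88-fold and 5.43-fold lower in members. Nkg7 was 5.39-fold and 3.02-fold lower, and Pglyrp1, a peptidoglycan recognition protein of granules, had 113 and 184 CPM against 608 and 919.9 CPM. Of 12 azurophil genes, 6 were at least 2-fold lower in members, among them the rule gene Elane, Ctsg and Ms4a3. Of the 5 marker genes, Cd34 was at least 2-fold higher in members and Ctsg at least 2-fold lower. The others did not reach 2-fold in both hashtags, and the list median was -0.31 on the log2 scale. Summed per thinned cell, the 5 markers had medians of 66 and 70 counts in members against 124 and 133 in Elane-high cells. This sum includes the rule gene Mpo and does not speak for each marker. The 17 ER chaperone genes had 36 and 44 against 44 and 63, with a list median of -0.30 on the log2 scale. Mcpt8 was 11.5-fold and 9.44-fold higher in all members than in Elane-high cells, and most of its counts lay in the marked cells described above.

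The second comparison was with 280 cells with 2 or more counts of Klf4, a transcription factor of monocytes. These cells were deeper than members, with medians of 32784 against 28657.5 counts in A963 and 54045 against 43385 in A965. Gene counts after thinning are given in the closing section. In members 45 genes (0.175%) were at least 2-fold higher and 23 (0.0896%) lower in both hashtags, and with remaining members alone 17 (0.0662%) and 18 (0.0701%). Of the 7841 genes with at least 10 CPM, 0.574% were higher and 0.293% lower in members. Leaving out the marked cells removes most basophil and eosinophil counts by construction, and 7 of 10 and 2 of 7 of those genes were higher in all members. Lgals3, galectin-3 of the monocyte lineage, had 64.1 CPM in A963 members against 280.4 CPM, and 42.4 against 235 CPM in A965. Lyz2, the myeloid lysozyme, was 2.17-fold and 2.74-fold lower. Irf8 was also lower in members, by 1.74-fold in A963 and 2.17-fold in A965. Cd34 had 229 against 87.8 CPM and 145 against 41.1 CPM, and Cd27 was 7.06-fold and 9.42-fold higher. Members therefore lay between Elane-high and Klf4-positive cells in Irf8, and above both in Cd34.

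The third comparison was with 518 cells with Mpo of 5 to under 20 per 10000. In members 9 genes (0.0351%) were at least 2-fold higher and 28 (0.109%) lower in both hashtags, or 6 (0.0234%) and 39 (0.152%) with remaining members alone. Of the 7829 genes with at least 10 CPM, 0.115% were higher and 0.358% lower in members. Ms4a3 had 405 against 113 CPM in A963 and 806 against 262 CPM in A965, and Ctsg 2039 against 797 CPM and 2549 against 973 CPM. Calr had 1011 against 471 CPM and 1365 against 546 CPM, and Alas1, which opens haem synthesis and so the haem group of Mpo, was 2.83-fold and 2.21-fold higher. Cd34 was close in both, at 229 against 252 CPM and 145 against 166 CPM. Flt3 was 3.27-fold and 3.11-fold lower in members, and Dntt, the DNA polymerase of early lymphoid cells, 10.1-fold and 7.74-fold lower. Of the later granule list 7 of 15 genes and of the erythroid list 6 of 14 were lower in members, while the median summed counts per thinned cell were alike, at 2 in each for the erythroid list and 37 and 36 in members against 38 and 37 for the later granule list. Scrublet called 15 of the 518 Mpo-intermediate cells doublets, and their part in the difference was not tested.

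Members of A965 and A963 were compared by summed counts, and a gene was counted at 1.5-fold or more. In A965 members 57 genes (0.222%) were higher and 44 (0.171%) lower, and 57 (0.222%) and 42 (0.164%) in remaining members alone. Of the 8025 genes with at least 10 CPM, 0.66% were higher and 0.511% lower in A965 members. The median log2 ratio of genes with at least 10 CPM was 0.03. Mpo, which the rule set at the same threshold in both hashtags, had 4495 CPM in A963 and 4442 CPM in A965. Srm, which the rule did not use, had 186 and 191 CPM.

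Ifitm1, an interferon-induced transmembrane protein that is also expressed by stem cells and progenitors, had the largest ratio among the genes named by rule. It had 282 CPM in A963 members and 1286 CPM in A965 members, a 4.55-fold higher level (interval 4.38 to 4.74), while the 8 members of A962 had 160.3 CPM and the 3 of A961 had 0 counts. In remaining members the ratio was 6.20 (interval 5.92 to 6.50), and in basophil-marked members it was 0.931 (interval 0.860 to 1.01), at 1755 and 1634 CPM. Thinned to equal depth, Ifitm1 was detected in 47.4% of A963 and 94.8% of A965 remaining members, against 9.15% and 6.78% of globin-high cells. In basophil-marked members the shares were 76.7% and 95.1%, so the lowest share among these groups of members was in the remaining members of A963. Elane-high cells had 42.3 and 233 CPM, a ratio of 5.50. Of the other Ifitm genes listed, Ifitm3 was 1.53-fold higher in A965 members and Ifitm2 and Ifitm6 were at 1.05 and 0.966. Whether a ratio differed between groups of cells was not tested.

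A few azurophil genes were also higher in A965 members. Ms4a3 had 405 CPM in A963 and 806 CPM in A965 members, and Nkg7 227 and 413 CPM. In Elane-high cells the A965 to A963 ratios of these genes were 1.18 and 1.02. Srgn had 866 and 1541 CPM, so 3 of 12 azurophil genes passed 1.5-fold and 0 were lower, with a list median of 0.39 on the log2 scale. Prss57, a serine protease of azurophil granules, had 70.0 and 177 CPM, and Mt1, a metallothionein that binds zinc, 145 and 338 CPM. Ly6a, the stem cell antigen Sca-1 that inflammation is known to raise in mice, had 15.7 and 44.3 CPM, and Cybb, the catalytic subunit of the phagocyte oxidase, 48.7 and 83.9 CPM. Cpa3 and the eosinophil genes Prg2, Epx and Prg3 passed 1.5-fold in A965 members only with the marked cells included, of which A965 had more.

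Cd34, Cd93 and a few monocyte genes were lower in A965 members, while of 16 stem and multipotent genes 1 was higher and 0 lower. Cd34 had 229 CPM in A963 and 145 CPM in A965, 1.58-fold lower (interval 1.49 to 1.68), and in Elane-high cells it was 4.41-fold lower. Cd93, a surface lectin of early progenitors, had 147 and 87.1 CPM. Irf8 had 435 and 285 CPM, F13a1 329.6 and 197 CPM and Ly6c2 2935 and 1923 CPM. Of 14 monocyte genes, 3 were lower and 0 higher in all members, while in remaining members F13a1 was lower and Ccr2 higher, and Irf8 and Ly6c2 missed the limit at 1.48-fold each. The monocyte genes therefore did not move as one.

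Some genes lower in A965 members had roles outside the myeloid choice. Slpi, a secreted inhibitor of elastase and cathepsin G, had 361 and 167 CPM. Noct, a circadian deadenylase-like protein, had 226 and 131 CPM, and it was also lower in A965 among basophil-marked members (1.54-fold) and Elane-high cells (1.55-fold). Cfp, the complement regulator properdin, had 103 and 41.9 CPM, with a ratio in Elane-high cells of 0.917. It lies on the X chromosome, and Xist also differed between the hashtags. Apoe, apolipoprotein E, had 109 and 43.5 CPM in all members and 62.6 and 19.6 CPM in remaining members, but its log2 ratio was 0.027 in members with 20000 to 40000 counts. Ifi209, of an interferon-induced family with near-identical members whose reads may be split, had 139 and 61.0 CPM.

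Some of these ratios moved when members of like depth or like Elane were compared. Among members with 20000 to 40000 counts (180 in A963 and 114 in A965), Ifitm1, Ms4a3 and Mt1 kept log2 ratios of 2.34, 0.67 and 0.66, and Cd34 and Slpi of -0.62 and -1.07, all past 1.5-fold. Noct, Cd93, Irf8 and F13a1 had -0.36, -0.12, -0.52 and -0.52 there, and Ly6a and Ifitm3 0.54 and 0.36, which is short of 1.5-fold. Among members with Elane under 10 per 10000, Irf8 had -0.21, F13a1 -0.43 and Ly6c2 -0.01, so these 3 genes were short of 1.5-fold in the cells with the least Elane.

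Lists tied to an LPS response did not pass 1.5-fold in A965 members as groups. Of 17 interferon-stimulated genes 0 passed in either direction, with a median of -0.12 on the log2 scale, of 14 NF-kB and acute inflammation genes 0 with a median of 0.05, and of 9 LPS sensing genes 0 with a median of 0.10. Only 8, 5 and 5 of these genes had at least 10 CPM, so most were near the limit of detection. The cycle lists held 0 of 17 S phase genes and 0 of 15 G2/M genes, with medians of 0.11 and 0.00. Of 17 ER chaperone genes 0 passed, but the list median was 0.28, with Calr at 1.35-fold and Hspa5, the main ER chaperone of the heat shock 70 family, at 1.43-fold higher in A965.

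**Figure D5:**
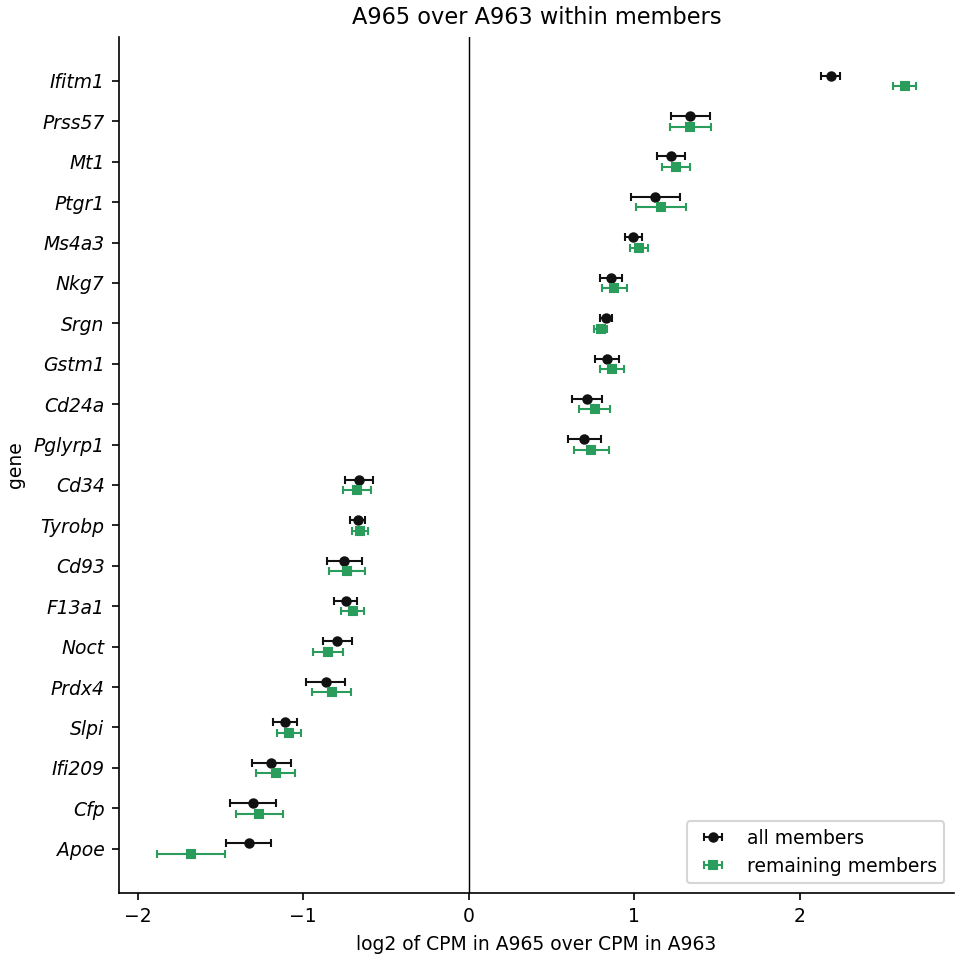
Log2 of CPM in A965 over CPM in A963 for the 20 genes named by rule, in all members (black circles) and in remaining members (green squares), with bars for the 95% interval of counting error. Ifitm1 stands furthest right, at 4.55-fold in all members and 6.20-fold in remaining members, and Apoe stands furthest left, at 2.51-fold lower and 3.19-fold lower.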

How the data were processed

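The authors deposited 1 table of raw counts, 25661 genes by 10731 cells, from a 3' library read on the BD Rhapsody system with TAS-Seq amplification, per the labels' protocols. Seurat 4.2.0, R 4.2.1 and build GRCm38 are named in the submitters' processing notes. The aligner and counter are not given in the sources used here, and whether the counts are molecules or reads could not be settled: table values of 2 were 54.7% as frequent as values of 1. The 190 cells named as doublets by the authors and 6 with no hashtag were left out, and 7 more were removed by the filters. Kept cells had 8822 to 140994 counts.

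Counts were summed per group and hashtag and scaled to CPM (numpy 2.4.6, pandas 2.3.3). Ratios were ranked with 10 CPM added, and printed folds have nothing added. Intervals at 95% are exact binomial for ratios (conditional) and shares (Clopper-Pearson), exact Poisson for CPM and Katz for the ratio of shares (scipy 1.17.1). The fold and interval formulas of the A965 to A963 comparison of members were tried on simulated Poisson counts. Such counts hold no variation between cells, so the trial does not test the intervals on real cells. The other comparisons were not simulated. Doublets were called with Scrublet in scanpy 1.11.5, which marked 2.12% of cells, and kept. Named genes were the 10 genes furthest apart in each direction, plus members of gene lists. The 10 needed 100 CPM or more and detection in 25% or more of the cells where the gene was higher. Mitochondrial, ribosomal, unnamed and rule genes were left out, as were Xist, Tsix, Ddx3y, Eif2s3y, Kdm5d and Uty. Other X-linked genes, such as Cfp, were kept. Members and lists were chosen with earlier results of these data known, and the marked subsets after their values were seen. Gene positions are from GENCODE M21, which held 96.4% of the symbols.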

Additional observations from a re-analysis of the deposited data

Results flagged for a closer look

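Cells that the authors named as doublets were used in no comparison. Of these, 5 of 190 met the rule for members, or 2.63% (exact binomial interval 0.860 to 6.03). Among kept cells with a single hashtag 6.73% did. The interval includes 1.58%, the share that a count of 0 would allow when read as at most 3 counts. Their median total was 12555 counts.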

How the results depend on the processing

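The alternatives that leave out basophil- and eosinophil-marked cells, and all those for the Elane bands and marked subsets, were chosen after seeing the data. Member shares in A963 and A965 moved with the thresholds, to 9.97% and 8.89% at Mpo of 10 or more, 3.94% and 3.25% at 40 or more, 4.81% and 4.37% at Elane under 25, 9.18% and 9.72% at Elane under 100, 9.80% and 9.04% without the Klf4 condition, and 9.01% and 8.41% after thinning. The ratio of shares was 1.06 at Elane under 100 and 0.824 to 0.933 otherwise. Genes 1.5-fold higher and lower in A965 members numbered 763 and 721 with 1 CPM added, 102 and 67 thinned, 112 and 159 at Elane under 10, and 358 and 73 in members with 20000 to 40000 counts (180 and 114 cells). With 1 CPM added, 2-fold counts were 300 and 276 against Elane-high cells, 256 and 88 against Klf4-positive cells, 22 and 159 against Mpo-intermediate cells, and 202 and 335 between the top and bottom Elane bands of all members. Thinning gave 70 and 48 against Klf4-positive cells and 87 lower genes between bands. Without marked cells 17 genes were higher against Klf4-positive cells and 24 lower between bands. Of 272 values for 34 named genes, 165 were classed as the same, 102 as moved and 5 as reversed in sign. Apoe (0.027) and Prg2 (-0.92) changed sign in the 20000 to 40000 count window. Cpa3 did so without cells of other lineages (-0.22) and without marked cells (-0.22), and Pglyrp1 at Elane under 10 (-0.29). The cause was not tested, except that leaving out marked cells removes the cells that held Cpa3. No paired analysis was possible because each hashtag is 1 sample with no replicate, which also left no replicate to leave out. Depth limits Kit, Flt3 and the inflammation genes, most of which had few counts per cell.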

Other observations

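Within basophil-marked members, hashtags differed in granule genes. Prss34 was 2.01-fold lower (interval 1.95 to 2.07) in the 41 A965 cells than in the 30 A963 cells and Mcpt8, a basophil protease, 1.58-fold lower (interval 1.52 to 1.64), while Prtn3 was 3.71-fold higher (interval 3.29 to 4.19), at 2235 against 602 CPM. Each value sums few cells and has no replicate. Mt1 was 2.38-fold higher in A965 in basophil-marked members and 2.38-fold higher in remaining members. In the 8 members of A962, Ms4a3 had 506 CPM, Cd34 119 CPM and Noct 182 CPM.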
